A study of Mus musculus with 69 samples.

Results

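The Sox genes encode transcription factors that bind DNA through a shared HMG box, and 10 of them were followed here in single cells of the embryonic mouse forebrain: Sox1, Sox2, Sox3, Sox21, Sox8, Sox9, Sox4, Sox11, Sox5 and Sox6. They were named as a family with earlier results of these data known, and 9 other Sox genes on the array are not among them. They are 10 of the 18194 genes that had a probe set of their own on the array. Signal above the floor, the level that separated the upper from the lower mode of all values, was found for 9 of the 10 in at least 1 of the 69 cells.

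As background, the SoxB1 genes Sox1, Sox2 and Sox3 are known to keep neural progenitors from differentiating, and the SoxB2 gene Sox21 acts against them in chick. Sox9, of the SoxE group together with Sox8, is known for the induction and upkeep of neural stem cells and later for glial fate. The SoxC genes Sox4 and Sox11 are known to activate genes of differentiating neurons. Of the SoxD genes, Sox5 is known to shape the deep-layer projection neurons of the cortex, and Sox6 is found in the progenitors of the dorsal forebrain.

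The cells came from the dorso-lateral cerebral wall of CD1 mouse embryos at embryonic day 14, were dissociated and picked by hand, and each was amplified and hybridised to an array of its own. The labels place 3 cells in the cortical plate (CP), where newborn neurons settle, and 66 in the zones lining the ventricle (ventricular and subventricular, VZ/SVZ), where progenitors divide. A letter in each cell's title splits them further into E (the 3 CP cells), D (7 cells), C (7), A (7), B (14) and X (31). The labels do not say what a letter stands for, and it may have been given from these very profiles, so values by letter are descriptions. The labels tie no cell to an animal, so each group stands for 1 sample only, the spread given is over its cells, and no test between groups was possible. A difference of at least 1 log2 unit is used below as a rule of size and not as a test.

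A cell had between 3669 and 5664 genes above the floor, with a median of 3845 in CP cells and 4674.5 in VZ/SVZ cells (4097 in D cells). CP arrays were also dimmer, with a median trimmed mean signal of 55.6 in CP cells and 93.8 in VZ/SVZ cells (73.3 in D cells), and the values were used as deposited, with 2 rescalings of the cells as alternatives. Spiked bacterial RNA at 20 copies per cell passed the floor in all 69 cells. RNA at 5 copies passed it in 27 of them, 0 of 3 in CP and 27 of 66 in VZ/SVZ. A spike counted as passing where any of its probe sets did, while each gene was read from 1 probe set. A gene under the floor may therefore still have had a few copies or more. Markers fitted the source labels: 14 of 15 neuron markers were above the floor in each CP cell, against a median of 5.5 in VZ/SVZ cells, and 4 of 18 apical progenitor markers in the median CP cell, against 14. D cells had a median of 13 neuron and 4 apical progenitor markers, C cells 9 and 9 with 10 of 12 intermediate progenitor markers, A cells 5 and 17, and B cells 7.5 and 11. All markers of oligodendrocyte precursors, endothelial cells, microglia and erythroid cells were under the floor in every cell. Of 8 interneuron, 6 pericyte and meningeal and 6 Cajal-Retzius markers, no CP or D cell had any above the floor, and a VZ/SVZ cell had at most 3, 1 and 1.

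The title also carries a number after the letter, whose meaning is not stated and which takes 22 values, 10 of them with cells of 1 letter only. Number 18 stands on 5 of the 7 D cells and on no other cell, and numbers 12 and 19 on the 3 CP cells alone, so what the number stands for cannot be told apart from the group in those cells. The other 2 D cells carry 8 and 9, which other letters share.

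The promoters of 4 members are shown because these genes form the pairs that differed in opposite ways between D cells and A cells: Sox1 and Sox2 were lower in D cells, Sox4 and Sox11 higher. Each run of 300 bases covers 250 before and 50 after the annotated start, from RefSeq on GRCm38.p6, written 5′ to 3′ on the gene's strand. Capitals mark CCAAT or its reverse complement ATTGG. Of the forms of the core that Sox proteins bind, only ACAAT was searched, on both strands too, and it had no match in any of the 4. Other forms of that core were not searched, so Sox sites in these windows are not excluded.
Sox1 (chr8:12395269-12395568, plus strand): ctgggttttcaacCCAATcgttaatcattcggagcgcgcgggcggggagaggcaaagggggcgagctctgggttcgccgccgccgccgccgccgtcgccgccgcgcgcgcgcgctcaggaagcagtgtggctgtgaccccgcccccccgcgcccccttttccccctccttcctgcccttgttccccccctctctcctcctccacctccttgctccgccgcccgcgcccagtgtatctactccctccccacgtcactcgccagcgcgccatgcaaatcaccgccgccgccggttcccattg
Sox2 (chr3:34649745-34650044, plus strand): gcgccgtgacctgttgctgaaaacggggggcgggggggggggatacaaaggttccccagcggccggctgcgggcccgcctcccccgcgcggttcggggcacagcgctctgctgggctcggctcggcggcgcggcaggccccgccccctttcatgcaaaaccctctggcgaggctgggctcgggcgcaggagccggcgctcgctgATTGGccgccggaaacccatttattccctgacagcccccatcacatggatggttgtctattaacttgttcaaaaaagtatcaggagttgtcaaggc
Sox4 (chr13:28953650-28953949, minus strand): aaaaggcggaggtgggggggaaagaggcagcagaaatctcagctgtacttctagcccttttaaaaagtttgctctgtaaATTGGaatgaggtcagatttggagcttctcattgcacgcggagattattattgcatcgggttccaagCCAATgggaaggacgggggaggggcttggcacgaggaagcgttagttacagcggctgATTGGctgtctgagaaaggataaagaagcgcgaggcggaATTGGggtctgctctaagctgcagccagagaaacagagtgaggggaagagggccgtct
Sox11 (chr12:27342669-27342968, minus strand): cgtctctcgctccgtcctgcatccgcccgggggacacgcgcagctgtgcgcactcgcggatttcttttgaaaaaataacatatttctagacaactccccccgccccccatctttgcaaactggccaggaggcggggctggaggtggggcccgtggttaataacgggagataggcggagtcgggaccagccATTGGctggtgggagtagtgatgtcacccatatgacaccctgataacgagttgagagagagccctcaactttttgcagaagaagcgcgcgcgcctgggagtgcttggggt
Of all 32851 promoters in the table, 37.4% hold CCAAT on either strand and 31.02% hold ACAAT. Sox4 had 4 CCAAT matches, and Sox11, Sox1 and Sox2 had 1 each. A TATAAA box was absent from all 4 windows, and 13.6% of all promoters hold one. These matches describe the letters of the windows only.

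Across the source groups, the SoxB1, SoxB2 and SoxE members with signal and Sox6 were lower in CP cells, Sox5 was higher, and the SoxC members were present in both groups. By the rule of size, 6 of the 10 members were lower in CP cells, where 12.4% of all genes were, and 1 was higher, where 4.79% were. With the mean of all of a gene's probe sets, 5 were lower, since Sox9 was then at -0.72, and 3 higher. Among the 8745 genes above the floor in at least 10% of the cells, the shares were 25.8% and 8.97%. The members' median difference was -1.92 on the log2 scale, beside -0.42 for those 8745 genes, a median that was -0.18 after quantile normalization and -0.24 with equal trimmed means. Against the switch from SoxB1 and Sox9 to SoxC and Sox5 that the family is followed for, Sox1, Sox2, Sox3 and Sox9 were under the floor in CP cells and Sox5 was higher there. Sox4 and Sox11, on the probe sets used, were each found in all 3 CP cells and in 65 of the 66 others. By the rule of size, 3 of 4 Sox4 and 5 of 6 Sox11 probe sets with signal were higher in CP, though not the ones used. The fewest VZ/SVZ cells above the floor on any of these were 37 for Sox4 (1449370_at) and 20 for Sox11 (1431225_at).

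**Figure D1:**
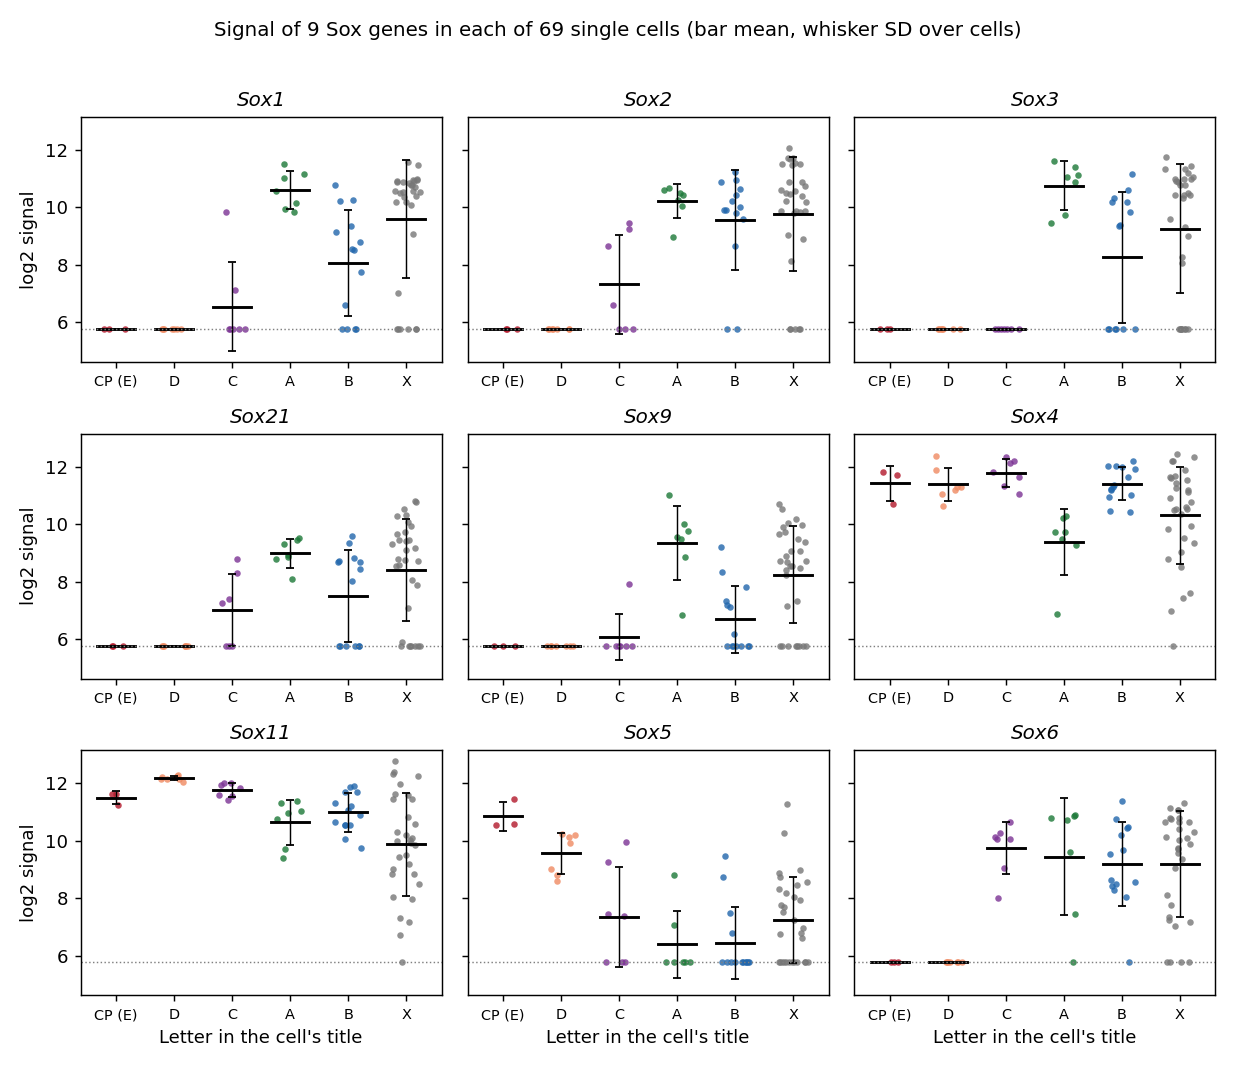
Log2 signal of 9 Sox genes (1 panel each) in each cell by the letter in its title; points are cells, bars the mean, whiskers the SD over cells, and the dotted line the floor at 5.77. Sox1, Sox2, Sox3, Sox21, Sox9 and Sox6 sit at the floor in all 3 CP and all 7 D cells, while Sox4 and Sox11 lie above it in nearly every cell.

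Among the SoxB1 genes, Sox2, the best known marker of neural progenitors, had signals of 1.48, 1.25 and 3.85 in the 3 CP cells. In VZ/SVZ cells its signal ran between 0.245 and 4345 with a median of 954. The floor lies at a signal of 54.6, so all CP cells were under it, and 49 of 66 VZ/SVZ cells (74.2%, exact 95% interval 62 to 84.2%) were above it. The mean log2 signal was at the floor of 5.77 in CP cells and 9.09 ± 2.16 in VZ/SVZ cells (SD over 66 cells), which makes Sox2 at least 9.99-fold lower in CP. Sox1 had signals of 0.887, 0.866 and 0.139 in CP cells, and between 0.152 and 3060 with a median of 920 in VZ/SVZ cells. It passed the floor in 0 of 3 CP cells and 44 of 66 VZ/SVZ cells, and was at least 7.36-fold lower in CP. Sox3 had 12.9, 10.7 and 7.93 in CP cells, and between 1.11 and 3503 with a median of 661 in VZ/SVZ cells. It passed the floor in 0 of 3 CP cells and 38 of 66 VZ/SVZ cells, and was at least 6.49-fold lower in CP. For all 3 genes the groups overlap, because some VZ/SVZ cells were as low as the CP cells.

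Sox21, the SoxB2 member, passed the floor in 0 of 3 CP cells and 43 of 66 VZ/SVZ cells, with signals of 1.97, 10.4 and 3.2 in CP cells and a median of 363 in VZ/SVZ cells, where the highest cell had 1795. Its mean was at least 4.23-fold lower in CP cells. Of the SoxE genes, Sox9 had 1.99, 4.13 and 4.56 in CP cells and between 0.661 and 2062 with a median of 153 in VZ/SVZ cells. It passed the floor in 0 of 3 CP cells and 38 of 66 VZ/SVZ cells and was at least 3.41-fold lower in CP. That call rests on 1 of the 2 Sox9 probe sets with signal, as the other gave -0.38 on the log2 scale. Sox8 was under the floor in all 69 cells, with a highest signal of 9.41, which allows a share of up to 5.21% of cells (exact 95% interval). Sox8 has only 1 probe set, so absence of its RNA cannot be told apart from a probe set that did not detect it. The gene is known from oligodendrocyte lineage cells, whose markers were also under the floor here, and a link was not tested.

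On the probe sets used, the SoxC genes were the members found in nearly every cell. Sox4 had signals of 3618, 1679 and 3365 in CP cells, and between 4.21 and 5542 with a median of 2256 in VZ/SVZ cells. Its mean log2 signal was 11.42 ± 0.61 in CP cells and 10.71 ± 1.45 in VZ/SVZ cells (SD over 3 and 66 cells), a difference of 0.71, which is under the rule of size and within the spread of VZ/SVZ cells. Sox11 had 3178, 2450 and 3181 in CP cells, and between 3.1 and 6964 with a median of 2060 in VZ/SVZ cells. Its means were 11.51 ± 0.22 in CP cells and 10.64 ± 1.53 in VZ/SVZ cells, a difference of 0.87. Both SoxC differences kept their direction but passed 1 log2 unit when the cells were rescaled, with 1.17 for Sox4 and 1.32 for Sox11 after quantile normalization and 1.37 and 1.52 with equal trimmed means. The cells of the 2 groups overlapped for both genes in every case. The single VZ/SVZ cell without Sox4 and the single one without Sox11 were both X cells but not the same one. X-22M, without Sox4, had Sox11 at 459 and Sox2 at 3412, and X-21J, without Sox11, had Sox4 at 4715 and Sox2 at 1451.

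Of the SoxD genes, Sox5 was the only member higher in CP by the rule of size on the values as deposited. Its signals were 1492, 1540 and 2784 in CP cells, and between 0.621 and 2500 with a median of 112 in VZ/SVZ cells. All 3 CP cells and 36 of 66 VZ/SVZ cells passed the floor (54.5%, exact 95% interval 41.8 to 66.9%). The mean log2 signal was 10.86 ± 0.51 in CP cells and 7.24 ± 1.61 in VZ/SVZ cells, a difference of 3.62. CP and VZ/SVZ cells overlapped, since the highest VZ/SVZ cell lay between the CP cells, but did not after either rescaling, where the difference was 4.21 and 4.26. Sox6, the relative of Sox5, was lower in CP: it had 8.76, 1.28 and 3.31 in CP cells and between 1.19 and 2692 with a median of 800 in VZ/SVZ cells. It passed the floor in 0 of 3 CP cells and 53 of 66 VZ/SVZ cells and was at least 8.85-fold lower in CP.

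The letters split the VZ/SVZ cells further, and the D cells matched the CP cells in which members they lacked. None of the 10 D and CP cells had Sox1, Sox2, Sox3, Sox21, Sox9 or Sox6 above the floor, 0 of 60 readings, and all 10 had Sox4, Sox11 and Sox5. For each gene, 0 of 10 cells allows a share of up to 30.8% (exact 95% interval). Of the 4549 genes above the floor in at least 50% of the other 59 cells, 4.81% were under it in all 10, and of the 8745 genes above it in at least 10% of all cells 11.5% were. At a lower floor, taken from the TrpnX control probe sets (signal 6.26), 17 of the 60 readings passed, and after quantile normalization 3 did. The highest of these readings as deposited was 29.3, for Sox21 in a D cell. D and CP cells had fewer genes above the floor (median 4090) than the other cells (median 4770), and the part of this in the absent readings was not tested. The 2 D cells whose title number other letters share also had 0 of 12 such readings, with Sox11 at 4609 and 4822 and Sox5 at 1201 and 520.3. Number 9, the only one with both D and B cells, gave differences of 0.42 for Sox11, 0.54 for Sox5, -2.13 for Sox2 and -4.72 for Sox6 between its 1 D cell and 2 B cells.

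Set against B cells, D cells had 5 members lower by the rule of size, where 8.36% of all genes were (17.4% of the 8745), and 2 higher, where 4.54% were (9.3% of the 8745). Sox11 had signals between 4274 and 5003 with a median of 4609 in D cells, and between 859 and 3884 with a median of 2032 in B cells. The 2 sets of cells did not overlap, which held for 0.148% of all genes in this direction, and the means were 12.19 ± 0.08 in D cells and 10.99 ± 0.68 in B cells (SD over 7 and 14 cells). Sox5 ran between 393 and 1201 with a median of 981 in the 7 D cells, all above the floor, and passed it in 4 of 14 B cells, with means of 9.57 ± 0.72 and 6.44 ± 1.25, a difference of 3.12. Sox4 did not part these cells on the probe set used: its means were 11.39 ± 0.58 in D cells and 11.41 ± 0.58 in B cells. On Sox4 probe set 1449370_at D cells were higher by 1.48, at 8.93 against 7.46 in B cells. The Sox4 probe sets 1419155_a_at and 1419156_at gave 0.11 and 0.07. Sox2, present in 12 of 14 B cells, was at least 13.8-fold lower in D cells, and Sox6, present in 13 of 14, at least 10.7-fold lower.

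In C cells the progenitor members were present unevenly. All 7 C cells had Sox6, between 255 and 1615 with a median of 1069, and all had Eomes, the marker of intermediate progenitors. Sox3 was under the floor in all 7 and Sox9 in 6, while Sox2 and Sox21 passed it in 4 each and Sox1 in 2. Sox1 and Sox2 were not above the floor in the same C cell: 4 cells had Sox2 alone, 2 had Sox1 alone and 1 had neither. This depended on the floor, since cells C-11H and C-13M passed the lower TrpnX floor for both genes. Their signals were 6.80 and 43.9 for Sox1 and 406 and 96.3 for Sox2. Whether the 2 genes exclude each other was not tested in these 7 cells. The median number of SoxB1 genes above the floor was 1 in C cells, 3 in A cells and 2.5 in B cells.

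Set against B cells, C cells had 3 members lower, where 2.89% of all genes were (6.01% of the 8745), and 0 higher, where 2.71% were (5.6%). These were Sox2 at -2.23, Sox1 at -1.53 and Sox3 at -2.49 as a bound, each with overlapping cells. With the mean of all probe sets 2 were lower, and Sox1 was at -0.76. Title numbers 10, 14 and 16 each hold 1 C cell, beside 1, 2 and 3 B cells. Within them, in that order, Sox2 gave -1.39, -2.33 and -0.48. Sox1 gave -3.58, 1.36 and -2.32, and Sox3 -4.06, 0 and -3.01. Set against C cells, D cells had 3 members lower, Sox6, Sox2 and Sox21, where 8.67% of all genes were (18% of the 8745), and 1 higher, Sox5 at 2.22, where 4.77% were (9.73%). Sox6 was among the 0.363% of genes lower with no overlap: it was under the floor in all 7 D cells and above it in all 7 C cells, a difference of at least 15.8-fold. Sox11 was higher in D cells with no overlap, as 0.192% of genes were, though by only 0.41 on the log2 scale, and the cells overlapped with equal trimmed means.

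A cells had the fullest set of progenitor members. All 7 had Sox1, Sox2, Sox3, Sox21 and Sox9 above the floor, and 6 of 7 had Sox6 as well. Sox9 ran between 114 and 2062 with a median of 753 in A cells, and between 0.686 and 587 with a median of 43.6 in B cells, of which 7 of 14 passed the floor. Its means were 9.35 ± 1.29 in A cells and 6.68 ± 1.15 in B cells, a difference of 2.67, which with the mean of all Sox9 probe sets was 0.86 and under the rule of size. Within title number 15 the Sox9 difference was -0.48 (3 A cells and 1 B cell), and within number 17 it was 1.79 (1 and 2 cells). By the rule of size, 4 members were higher in A cells, where 4.85% of all genes were (10% of the 8745), and 1 was lower, where 3.41% were (7.1%). The others higher were Sox1 (2.53), Sox3 (2.50) and Sox21 (1.49), and Sox2, at 0.66, was under the rule. Within title number 15 the differences were -0.0048 for Sox1, 5.06 for Sox3 and -0.52 for Sox21. Within number 17 they were 2.17, 1.16 and 0.62.

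Sox4 was the member lower in A cells. It had signals between 118 and 1261 with a median of 845 in A cells and between 1370 and 4660 with a median of 2587 in B cells, so the highest A cell lay under the lowest B cell. Only 3 of 18194 genes (0.0165%) were lower in A cells with no overlap. The difference between A and B cells was -2.07 within title number 15 (3 and 1 cells) and -1.13 within number 17 (1 and 2 cells). After either rescaling A and B cells did overlap on Sox4, at differences of -2.20 and -2.15. The means were 9.37 ± 1.16 in A cells and 11.41 ± 0.58 in B cells, a difference of -2.04. With the mean of all probe sets it was -0.69, under the rule of size, while Sox11, at -0.33 on the probe set used, was at -1.16. CP cells had Sox4 above every A cell too, at 1679 or more.

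Between CP cells and D cells, both with neuron markers, 2 members parted with no overlap. Sox11 was lower in CP cells by 0.68 on the log2 scale, with 2450 to 3181 in CP cells and 4274 to 5003 in D cells. After rescaling this was -0.41 with quantile normalization, still with no overlap, and -0.33 with equal trimmed means, where the cells overlapped. Sox5 was higher in CP cells by 1.29, with 1492 to 2784 in CP cells and 393 to 1201 in D cells. Of all genes, 0.478% were lower and 0.363% higher in CP cells with no overlap. No member was lower by the rule of size, where 7.93% of all genes were (16.4% of the 8745), and 1 was higher, where 4.9% were (9.31%). Sox4 had means of 11.42 ± 0.61 in CP cells and 11.39 ± 0.58 in D cells.

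The 31 X cells had Sox6 above the floor in 27 cells, Sox2 in 26, Sox1 in 25, Sox21 in 24, Sox3 and Sox9 in 23 each and Sox5 in 19, and 21 of them had all 3 SoxB1 genes while 3 had none. Their Sox4 signal ran between 4.21 and 5542 with a median of 1559, and Sox11 between 3.1 and 6964 with a median of 1024, so X cells hold both the lowest and the highest SoxC signals of all 69 cells.

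**Figure D2:**
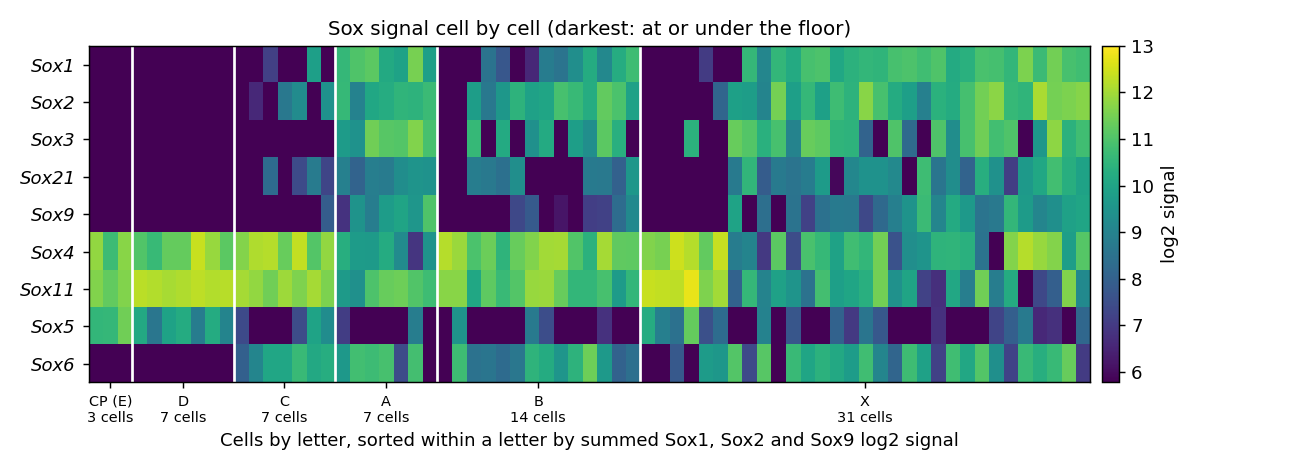
Log2 signal of 9 Sox genes (rows) in all 69 cells (columns), grouped by letter and sorted within a letter by summed Sox1, Sox2 and Sox9 signal; the darkest colour is at or under the floor of 5.77. The block of 10 CP and D cells is dark for 6 genes, C cells are dark for Sox3, and 27 cells, 18 of them X cells, have all 6 of those genes.

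Within single cells, the other progenitor members came largely in cells with Sox2. All 38 cells with Sox9 also had Sox2, and 11 cells had Sox2 without Sox9. No cell with Sox9 lacked Sox2 after quantile normalization or after scaling to equal trimmed means either, and 5 did at the TrpnX floor. Sox2 came with Sox6 in 47 of 49 cells, with Sox1 in 41, with Sox21 in 41 and with Sox3 in 37, while only 3 cells had Sox1, 2 had Sox21, 1 had Sox3 and 6 had Sox6 without Sox2. The 27 cells that had all of Sox1, Sox2, Sox3, Sox21, Sox9 and Sox6 were 18 of 31 X cells, 6 of 7 A cells and 3 of 14 B cells.

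The SoxC genes did not exclude the SoxB1 genes. Of 49 cells with Sox2, 48 had Sox11 and 48 had Sox4, and of 38 cells with Sox9, 37 had Sox11. Sox5 did go with the absence of Sox2: it was above the floor in 21 of 49 cells with Sox2 (42.9%) and in 18 of 20 without (90%). Sox5 and Sox6 were both above the floor in 26 cells, 16 of them X cells, while 27 had Sox6 alone and 13, among them all CP and D cells, Sox5 alone.

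**Figure D3:**
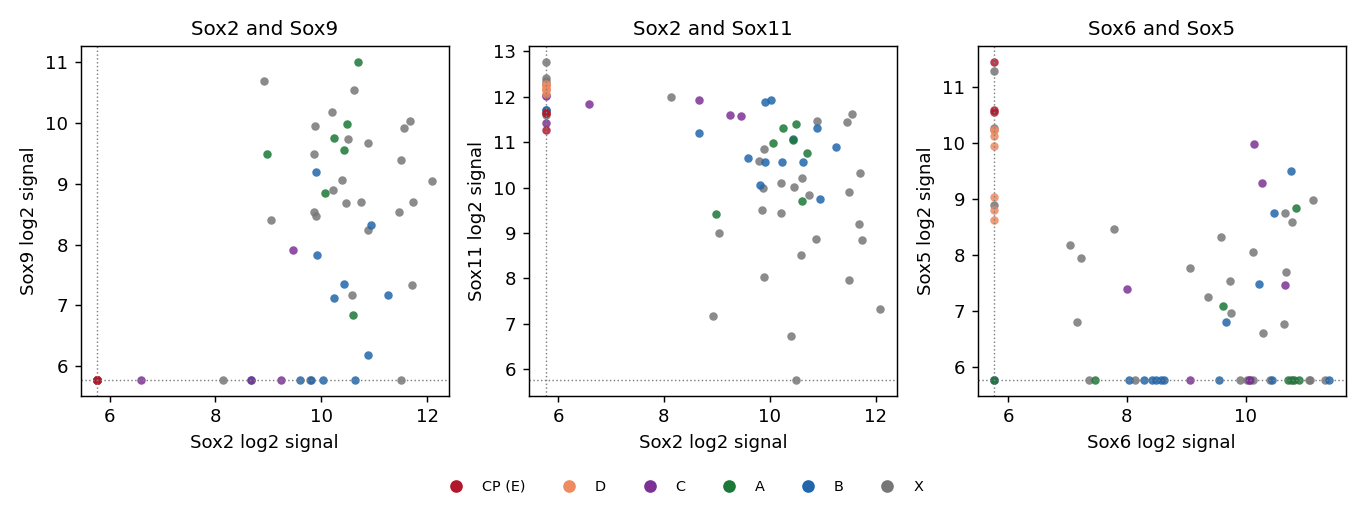
Log2 signals of 2 Sox genes in each of the 69 cells, coloured by letter, for Sox2 with Sox9, Sox2 with Sox11 and Sox6 with Sox5; dotted lines mark the floor. No cell lies above the floor for Sox9 and at it for Sox2, and 48 of the 49 cells with Sox2 lie above the floor for Sox11.

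A group of 13 VZ/SVZ cells had none of the SoxB1 genes above the floor: all 7 D cells, 3 of 31 X cells, 2 of 14 B cells and 1 of 7 C cells. None of the 13 had Sox21 or Sox9, and 3 had Sox6. All 13 had Sox4 and Sox11, 12 had Sox5, and 13 had the neuron genes Dcx and Tubb3. Of the 53 VZ/SVZ cells with a SoxB1 gene, 24 had Sox5, 26 had Dcx and 22 had Tubb3. The mean Sox11 log2 signal was 12.14 ± 0.22 in the 13 cells and 10.27 ± 1.49 in the 53. Mki67, a marker of cycling cells, passed the floor in 4 of the 13 and in 51 of the 53. The 6 of these 13 cells outside letter D all had Neurog2, the proneural factor, and 4 of the 6 had Eomes.

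Members also sorted by markers of stage within the VZ/SVZ. All 49 VZ/SVZ cells with Sox2 had Mki67, and of the 11 without Mki67 none had Sox2 or Sox9, 1 had Sox6 and all 11 had Sox5. At the TrpnX floor 1 cell had Sox2 and not Mki67. Sox9 was above the floor in 10 of 28 cells with Eomes (35.7%) and 28 of 38 without (73.7%), and Sox3 in 11 of 28 and 27 of 38. Sox2 did not part on Eomes, at 21 of 28 (75.0%) with it and 28 of 38 (73.7%) without. Sox6 was above the floor in 26 of 28 cells with Eomes and 27 of 38 without.

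Sox2 did part on Tbr1, the marker of early deep-layer neurons. Sox2 was above the floor in 7 of 23 VZ/SVZ cells with Tbr1 (30.4%) and 42 of 43 without (97.7%). Sox5 was above it in 20 of 23 with Tbr1 (87.0%) and 16 of 43 without (37.2%). With Slc1a3, the glutamate transporter of radial glia, Sox9 was found in 29 of 32 cells and without it in 9 of 34, and Sox3 in the same counts. All these shares are over cells of 1 sample and share each cell's amplification.

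Over the 69 cells, correlations of log2 signal gave the same sides. The mean of 18 apical progenitor markers, none of them a Sox gene, correlated with Sox1 at a Pearson r of 0.88, Sox9 at 0.81, Sox2 at 0.80, Sox21 at 0.78, Sox3 at 0.72 and Sox6 at 0.52, and with Sox4 at -0.53, Sox5 at -0.58 and Sox11 at -0.67. Of the lists compared, the G2 and M phase markers had the largest r with Sox6, at 0.71. With the same markers Sox2 had 0.75, under its 0.80 with the apical markers, and Sox5 had -0.72. Cells share their amplification and the number of genes found, which correlated with members between -0.34 (Sox5) and 0.55 (Sox6). With that number held constant, r with the apical markers was 0.86 for Sox1, 0.74 for Sox2, 0.78 for Sox9 and 0.35 for Sox6. Within the 31 X cells alone the Pearson r with the apical markers, without holding that number constant, was 0.87 for Sox1, 0.88 for Sox2 and 0.74 for Sox9. The Spearman correlations there were 0.60, 0.69 and 0.62.

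Of the 36 pairs of members with signal, 10 were also correlated over only the cells that had both genes, a choice made after seeing the data. In these 10 the correlation was nearer 0 than over all cells, except in the SoxC pair. Sox2 and Sox9 had an r of 0.67 over 69 cells and -0.12 over the 38 cells in which both passed the floor. Sox1 and Sox2 had 0.78 over 69 cells and 0.29 over the 41 with both, and Sox2 and Sox11 had -0.61 over 69 and -0.29 over the 48 with both. Sox4 and Sox11, found together in 67 cells, had 0.35 over 69 cells and 0.41 over those 67.

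**Figure D4:**
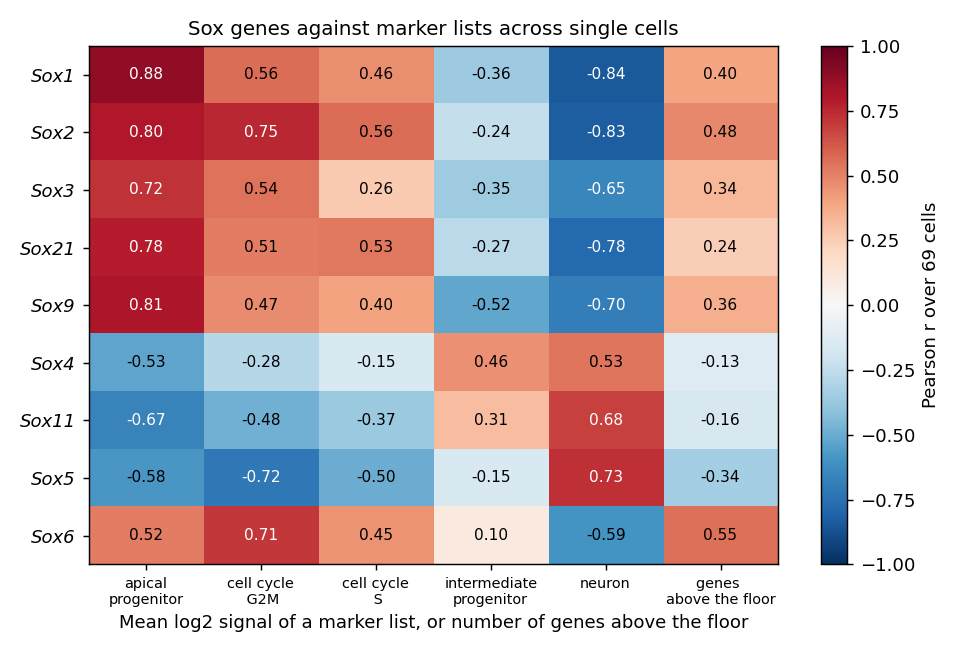
Pearson r over 69 cells between the log2 signal of each Sox gene (rows) and the mean log2 signal of a marker list or the number of genes above the floor (columns); red is positive and blue negative. Sox1, Sox2, Sox3, Sox21, Sox9 and Sox6 are positive with apical progenitor markers (0.52 to 0.88), and Sox4, Sox11 and Sox5 are negative (-0.67 to -0.53).

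The genes whose signal was most like a member's were taken by Pearson r over the 69 cells among 8744 others. For Sox2 they were Gas1 (0.81), Ect2 (0.80), Ddah1, Fabp7 and Hmgb2 (0.79 each), of which Ect2 acts in cytokinesis and Fabp7 is the fatty acid binding protein of radial glia. Sox1 ranked 8 in this order. Most unlike Sox2 were Cyria (-0.86), Neurod2 (-0.82), Kif21b (-0.81), Snap25 (-0.79), a protein of synaptic release, and the miR-124 host gene Mir124a-1hg (-0.78). For Sox9 they were Mfge8 (0.80), Id4 (0.77), Fgfr3, Rgcc and Ttyh1 (0.75 each), and most unlike it were Neurod6 (-0.81), Neurod2 (-0.79), Nsg2 (-0.77), Mgat5b and Kif21b (-0.76 each).

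For Sox11, the most like were Kif21b and Tubb3 (0.71 each), Neurod6 (0.70), Neurod2 (0.69) and Npdc1 (0.68), and the most unlike Gas1 (-0.69), Fgfr3 (-0.67), Slc1a3 (-0.66), Rcn1 and Tns3 (-0.65 each). Tubb3 is the neuronal tubulin, and Neurod2 and Neurod6 are factors of cortical neurons. For Sox5, the most like were Stmn2, Jph4 and Cyria (0.71 each), Nfasc and Actl6b (0.69 each), and the most unlike were the cell cycle genes Pclaf and Top2a (-0.74 each), Hmgb2, Mki67 and Pbk (-0.73 each). Sox4 ranked 339 for Sox11 and 878 for Sox5 among the 8744.

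Genes reported as partners or targets of the members were read from lists drawn up with earlier results of these cells known. Their counts stand beside 12.4% lower and 4.79% higher of all genes in CP cells, or 25.8% and 8.97% of the 8745. The lists share genes with the apical progenitor markers (such as Fabp7, Lhx2 and Pax6) and the neuron markers (such as Tubb3, Stmn2, Mapt, Bcl11b and Tbr1). The counts therefore restate in part the markers that fitted the source labels. Of 19 partners and targets of SoxB1 and Sox9, 13 were lower in CP cells, with a median difference of -2.78, and 1, Nfia, was higher. The POU factor Pou3f3, a partner of Sox2 in neural progenitors, was under the floor in all 3 CP cells and had 12.11 ± 0.36 in the 66 VZ/SVZ cells, all above the floor. Fabp7 was at the floor in CP cells and at 11.21 ± 2.27 in VZ/SVZ cells. Lhx2, a factor that keeps cortical identity, was at the floor and at 11.14 ± 0.99, and Pax6 at the floor and at 9.61 ± 2.04. D cells, which also lacked the SoxB1 genes, had Pou3f3 in 7 of 7 (11.83 ± 0.50) and Lhx2 in 6 of 7 (9.87 ± 2.20). Fabp7 passed the floor in 2 of 7 D cells and Pax6 in 0. Set against B cells, 11 of the 19 were lower in D cells, where 8.36% of all genes were. In the other direction 1, Nfib, was higher, where 4.54% were.

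Of 13 reported SoxC targets and neuronal genes, 7 were higher in CP cells and 2 lower, with a median of 1.51. Sox4 and Sox11 themselves were under the rule of size there on the probe sets used and the values as deposited. Set against B cells, 5 of the 13 were higher and 3 lower in D cells. The microtubule regulator Stmn2 had 11.92 ± 0.31 in CP cells and 6.72 ± 2.10 in VZ/SVZ cells, and Mapt, the tau gene, 9.92 ± 0.81 and 6.23 ± 1.32. Tubb3 had 11.29 ± 0.27 in CP cells and 8.12 ± 2.45 in VZ/SVZ cells. Tead2, reported as a SoxC target, was lower in CP cells, at 6.62 ± 1.47 against 9.86 ± 1.59 in VZ/SVZ cells.

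Of 9 Sox5 partners and deep-layer genes, 6 passed the floor in at least 1 cell. Among the 9, 5 were higher in CP cells and 0 lower, with a median of 1.29. Nfia, among these 5, also stands in the list for SoxB1 and Sox9. Set against B cells, 2 of the 9 were higher in D cells, where 4.54% of all genes were, and 0 lower. Bcl11b, a factor of subcerebral projection neurons, had 11.11 ± 0.40 in CP cells and 6.85 ± 1.82 in VZ/SVZ cells, and Tbr1 had 9.98 ± 0.41 and 6.85 ± 1.62. Fezf2, which specifies the same neurons, had 11.72 ± 0.39 in CP cells and 8.84 ± 1.52 in VZ/SVZ cells, where 58 of 66 cells had it. Tle4 had 8.56 ± 2.46 in CP cells, of which 2 of 3 passed the floor, and 6.97 ± 1.65 in VZ/SVZ cells. Of 9 further Sox genes on the array, 7 were under the floor in every cell, namely Sox7, Sox10, Sox14, Sox15, Sox17, Sox18 and Sox30. Sox12, the remaining SoxC gene, had 9.26 ± 0.39 in CP cells and 7.55 ± 1.47 in VZ/SVZ cells, and Sox13, of the SoxD group, passed the floor in 0 of 3 CP cells and 18 of 66 VZ/SVZ cells.

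The 10 members had 36 probe sets, and for several genes the values depended on which of them was read. On Sox4, the 3 other probe sets with signal gave CP minus VZ/SVZ differences of 2.86, 2.98 and 1.56, against 0.71 on the probe set used, which has the highest mean signal. On Sox11, the 5 others gave between 1.01 and 1.76, against 0.87. So the direction was shared by all 4 Sox4 and all 6 Sox11 probe sets with signal, while the size depended on the probe set. On Sox4 the A cells were lower than the B cells on all 4, by mean log2 signals of 9.37 and 11.41, 7.91 and 9.09, 7.40 and 8.71, and 6.45 and 7.46. On the 3 other probe sets 13, 12 and 9 of 14 B cells passed the floor, so A and B cells overlapped there. On Sox11, whose probe set used gave 10.66 in A cells and 10.99 in B cells, probe set 1429051_s_at gave 8.88 in A cells and 10.79 in B cells.

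Sox5 differed among its probe sets in which VZ/SVZ cells had it. Probe set 1455535_at, the one used, passed the floor in 3 of 3 CP, 7 of 7 D and 19 of 31 X cells. Probe set 1423500_a_at passed it in 3 of 3 CP, 6 of 7 D and 3 of 31 X cells, and 1432189_a_at in 2 of 3 CP, 5 of 7 D and 0 of 31 X cells. All 5 Sox5 probe sets with signal were higher in CP cells, 4 of them by the rule of size, but the finding of Sox5 in many X cells rests on 1 probe set. Sox21 and Sox6 had other probe sets that followed the one used, with r of 0.89 and 0.98 over the 69 cells, whereas Sox9 probe set 1424950_at passed the floor in only 7 of 31 X and 1 of 7 A cells. The other probe sets of Sox1 and Sox3 had no cell above the floor.

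**Figure D5:**
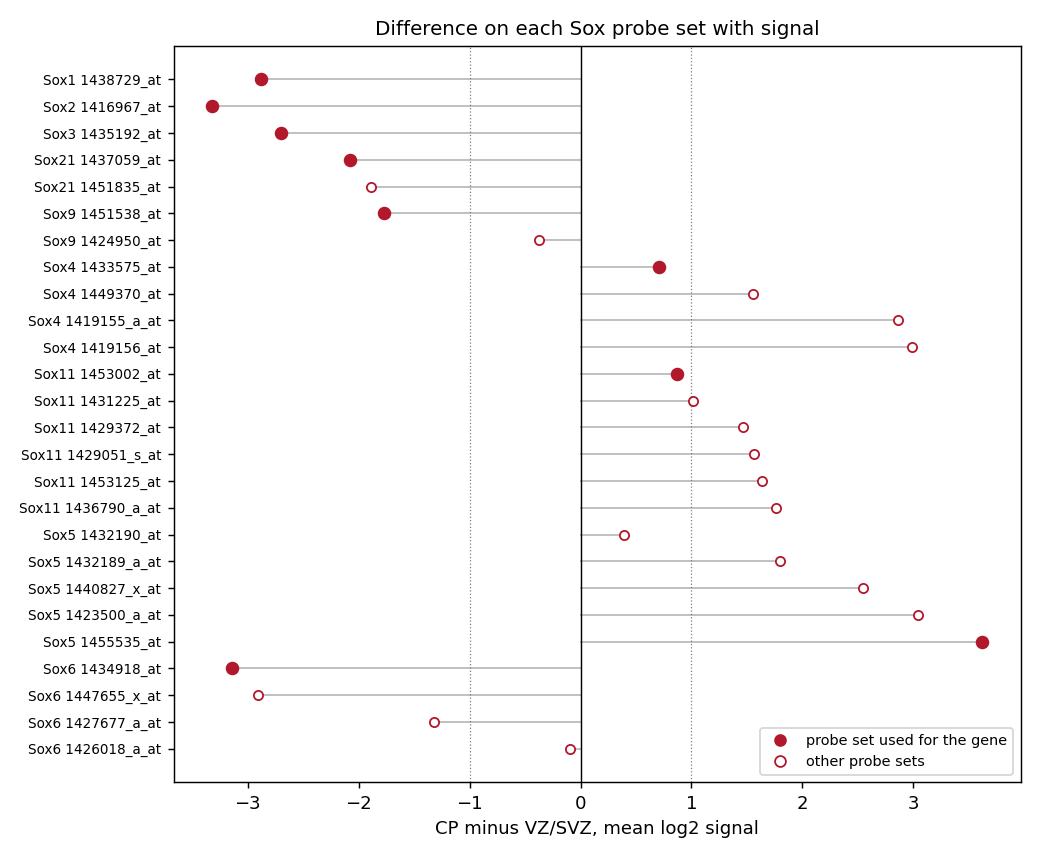
CP minus VZ/SVZ difference in mean log2 signal on each Sox probe set with at least 1 cell above the floor; filled points are the probe sets used for the genes, open points the others, and dotted lines mark 1 log2 unit either way. Every probe set of Sox4, Sox11 and Sox5 lies right of 0 and every one of Sox1, Sox2, Sox3, Sox21, Sox9 and Sox6 left of it.

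Cells were also clustered without any Sox gene or list gene, on a random 50% of the remaining genes, and the members were read off afterwards. Of 4 clusters, 1 held 18 cells (3 CP, 7 D, 1 C, 3 B and 4 X cells) and had the largest shift in neuron markers. In it, Sox4 and Sox11 passed the floor in all 18, Sox5 in 16, Sox6 in 4, Sox1 and Sox21 in 2 each, Sox2 and Sox3 in 1 each and Sox9 in 0. The cluster of 13 cells (6 C, 5 B and 2 X cells) with the largest shift in intermediate progenitor markers had Sox6 in 13, Sox2 in 10, Sox1, Sox21 and Sox9 in 5, 5 and 4, and Sox3 in 3. The 2 others, 26 and 12 cells with apical progenitor markers, had Sox2 in all 26 and all 12, Sox1 in 26 and 11, Sox9 in 22 and 12, and Sox5 in 8 of each. With the other 50% of genes, the cluster with the largest neuron shift had 13 cells, all with Sox5, Sox4 and Sox11 and none with Sox1, Sox2, Sox21, Sox9 or Sox6, while 1 had Sox3.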

How the data were processed

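Each of 69 cells was measured on 1 array. The authors deposited linear intensities, 1 per probe set, for which the submitters' processing notes name MAS5; no source used here gives the scaling. Of 45101 probe sets, 34958 had 1 gene in the platform annotation and were used. Each gene was read from 1 probe set, the one brightest on average over the 69 cells. The floor, the density minimum between the 2 modes of log2 signal (2.55 and 8.97), came to 54.6, or 5.77 on the log2 scale; 17.8% of values and none of 207 TrpnX control values passed it, and lower values were set to it. Where a whole group lay under it, a difference is a bound.

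The members and all gene lists were chosen with earlier results of these data known. Text genes are the 10 members, up to 4 genes per list with the largest absolute CP minus VZ/SVZ difference, the 5 most and least correlated genes of Sox2, Sox9, Sox11 and Sox5, markers, and for list counts of 1 the gene itself; others named were chosen after their values were seen. Shares carry exact Clopper-Pearson 95% intervals, which cover counting error only. For CP cells 1 label (description) gives the VZ/SVZ instead, and the source label was followed. No 2 cells had identical values. The number of cells limits precision. Clusters used Ward linkage on 10 components of 500 genes. The difference and correlation steps were tested on simulated data. Python 3.11.15, numpy 2.4.6, pandas 2.3.3, scipy 1.17.1 and matplotlib 3.10.9 were used. Alternatives were the TrpnX floor, no floor, the mean of a gene's probe sets, quantile normalization, equal trimmed means and leaving out each CP cell.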

Additional observations from a re-analysis of the deposited data

Results flagged for a closer look

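Within the letters A, C and D, 20 sets of 7 cells with a member above the floor were checked for a cell far from the others by Dixon's criterion, and chance flags about 1 in 20 groups. Such a cell was found in 5 of them. That rate does not hold where most values were set to the floor, as for Sox1 and Sox9 in letter C and Sox5 in letter A. In letter C, cell C-23J had Sox1 at 9.84 on the log2 scale, with the next cell at 7.13, and cell C-16N was the only one with Sox9, at 7.90, with the others at the floor of 5.77, so its distance follows from the floor alone. In letter A, cell A-23N had the lowest Sox2, 8.98, with the next at 10.06. Cell A-15K, also of letter A, was far from the others on 2 members, with the lowest Sox4, 6.89 (next 9.26), and the highest Sox5, 8.83 (next 7.09).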

How the results depend on the processing

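No difference turned its sign where a member or list was called, and 9 members kept their CP minus VZ/SVZ direction in all 9 settings. At the TrpnX floor the differences were -5.74 for Sox2, -4.28 for Sox21, -3.66 for Sox9, -5.57 for Sox6 and -0.021 for Sox8; with no floor they were -7.91 for Sox1, -5.03 for Sox21 and -6.51 for Sox6. The mean of all probe sets gave 1.63 for Sox5, and -1.44 for Sox1 and -1.35 for Sox3, each of which has a further probe set with no cell above the floor. With it, calls by the rule of size ended for Sox9 in CP (-0.72, leaving 5 members lower), Sox1 in C against B (-0.76, leaving 2), Sox9 in A against B (0.86, leaving 3 higher) and Sox4 in A against B (-0.69, where Sox11, at -1.16, was the 1 lower). Members higher in CP numbered 3 with the mean of probe sets, quantile normalization and equal trimmed means, and 1 to 2 with a CP cell left out (2 without replicate 2, when Sox4 passed 1 log2 unit). With no floor, 5 members were lower in D than in C, 5 in C than in B and 2 in A than in B; 1 was higher in C than in B at the TrpnX floor, with no floor and with the mean of probe sets. For CP minus D, 1 was lower at the TrpnX floor and 2 with no floor; 2 were higher with no floor, 0 with the mean of probe sets, and 0 to 1 with a CP cell left out (0 without replicate 3). Of the further Sox genes, the median was 0.33 with no floor, 1 was lower at the TrpnX floor and with no floor, and 0 were higher with the mean of probe sets. The median of SoxB1 and Sox9 partners was -5.04 at the TrpnX floor, -5.76 with no floor and -0.95 with the mean of probe sets; 2 were higher at the TrpnX floor, with no floor, with the mean of probe sets and with equal trimmed means. With the mean of probe sets 1 SoxC target was lower. The median of Sox5 partners was 1.95 with equal trimmed means and 0.65 to 1.53 with a CP cell left out (0.65 without replicate 1), and 1 was lower with no floor. At the TrpnX floor 41 cells had both Sox6 and Sox5, 5 had Sox9 without Sox2, 1 had Sox2 without Mki67, and 17 of the 60 readings of progenitor members in D and CP cells passed, against 3 after quantile normalization; these last counts, the overlap of cells after rescaling and the values within a title number were added after seeing the data. The causes were not tested. The TrpnX floor lies inside the lower mode of values. No paired analysis was possible because no test was run and the number in a title, of unstated meaning, is shared by no CP and VZ/SVZ cell. The planned comparison of protein sequences was not run. The 3 CP cells limit every comparison with CP: a member above the floor in 0 of 3 cells could be so in up to 70.8% of them.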
